A study of Mus musculus with 18 samples.

Results

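Nanopore (ONT) sequencing of circular RNAs from whole mouse brain gave 10975 circles in the comparison of Adar2KO with wild type. These were the circles with 5 or more reads in at least 2 of the 5 libraries, 9.92% of the 110637 circles listed in any of the 5, and 166212 circles were listed over all 8 ONT libraries with a table in the series of 18 libraries. Reads summed per host gene passed the same filter for 4735 of 10965 genes. The Adar2KO group (n = 3 libraries) was labelled Adar2-/-Gria2R/R, that is without ADAR2 and with a Gria2 allele that encodes the edited receptor subunit. The wild type group (n = 2 libraries, replicates 2 and 3; replicate 1 was not analysed here) carried neither change. All mice were males of 3 to 4 months labelled C57BL/6J, and RNA was treated with RNase R, which degrades linear RNA, before rolling reverse transcription and 14 cycles of PCR. The design text speaks of 3 biological replicates per genotype. Loss of ADAR2 and the Gria2 allele cannot be told apart, because the Adar2KO libraries carried both.

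A circular RNA forms when the splicing machinery joins the end of an exon back to the start of the same or an earlier exon, and such circles are abundant in brain. ADAR2, encoded by Adarb1, and ADAR1, encoded by Adar, convert adenosine to inosine in double-stranded RNA. Paired inverted repeats in the introns beside the joined exons favour back-splicing, and ADAR enzymes edit such pairs, which is why circles are compared between editing mutants and wild type. In mice, ADAR2 edits a codon of Gria2, an AMPA receptor subunit. Mice without ADAR2 survive when the edited codon is written into the genome.

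Libraries held between 364380 and 447592 reads in Adar2KO, against 186594 and 205273 in wild type, so that 1 read was worth 2.36 to 2.72 CPM in Adar2KO and 4.71 to 5.09 CPM in wild type. These CPM are circle counts relative to the TMM-scaled total of circle reads in the library. CPM of host genes are relative to the TMM-scaled total of reads summed over hosts. In Adar2KO replicate 1 that unscaled total was 328293 of the 364380 reads. Circle and host CPM are therefore not on the same scale. The deposited tables list circles from 2 reads upward, so a circle described here as listed in no library may have had 1 read there. In Adar2KO, with deeper and more libraries, 38 of the 10975 circles (0.346%) were unlisted in all 3, and 1135 (10.3%) were unlisted in both wild type libraries, while 59.8% were listed in all 5. Of the hosts, 0.0211% were unlisted in all 3 Adar2KO libraries and 5.64% in both wild type libraries. The median log2 fold change of all circles, Adar2KO over wild type, was 0.21 with TMM, 0.17 with DESeq2 size factors and 0.11 with total reads. It was 0.0685 for circles with 10 reads in 2 libraries and 0.00228 for circles listed in all 5. The value to read fold changes against therefore depends on how well a circle was covered. For host genes the median was 0.13 over all and 0.00589 for hosts listed in all 5 libraries.

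The joints of the exon circles on which the results turn are printed here, since the joint is what makes each read count as circular. In each sequence the lower case letters are the last 25 bases of the exon that closes the circle and the capitals are the first 25 bases of the exon that opens it, 5′ to 3′ on the strand of the gene. They were read from GENCODE M21 transcripts (GRCm38) whose run of exons had the block lengths of the circle, and positions are those of the deposited tables on GRCm39.
Fbxo42 exons 2 to 4, chr4:140895024-140907843, plus strand: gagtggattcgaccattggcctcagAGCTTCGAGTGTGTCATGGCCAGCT
Spred2 exons 2 to 4, chr11:19948120-19958477, plus strand: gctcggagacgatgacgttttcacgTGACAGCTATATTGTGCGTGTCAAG
Spred2 exons 2 to 5, chr11:19948120-19968189, plus strand: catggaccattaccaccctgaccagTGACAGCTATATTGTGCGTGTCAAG
Wdr49 exons 4 to 6, chr3:75265654-75304408, minus strand: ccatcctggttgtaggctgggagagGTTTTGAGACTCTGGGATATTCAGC
Wdr49 exons 5 to 6, chr3:75265654-75289386, minus strand: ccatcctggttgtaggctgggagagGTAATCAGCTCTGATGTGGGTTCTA
Gria2 exons 3 to 6, chr3:80629339-80648505, minus strand: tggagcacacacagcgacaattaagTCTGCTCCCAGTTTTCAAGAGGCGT
Gria2 exons 3 to 5, chr3:80634139-80648505, minus strand: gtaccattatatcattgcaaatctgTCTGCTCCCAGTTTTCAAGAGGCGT
Gabra2 exons 5 to 8, chr5:71163450-71171979, minus strand: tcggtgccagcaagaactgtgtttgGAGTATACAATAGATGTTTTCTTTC
Gabra2 exons 4 to 8, chr5:71163450-71192140, minus strand: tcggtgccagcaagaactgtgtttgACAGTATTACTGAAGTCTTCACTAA
Nnt exons 3 to 7, chr13:119518212-119533512, minus strand: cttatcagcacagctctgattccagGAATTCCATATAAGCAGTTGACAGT
The 2 Wdr49 circles and the 2 Gabra2 circles each share the closing exon and differ in the opening one, whereas the 2 Spred2 circles and the 2 Gria2 circles share the opening exon. The capitals of Fbxo42 begin 15 bases before the coding sequence, and all other letters shown lie in coding sequence.

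Circles of the altered genes came first. The labels do not say which part of Adarb1 was removed, so circle reads do not check its absence. Summed over its circles, Adarb1 rose in Adar2KO, with 55, 56 and 46 reads in Adar2KO, against 3 and 2 in wild type. All Adar2KO libraries lay above both wild type libraries. The means were 143 ± 23.2 CPM in Adar2KO and 14.5 ± 3.42 CPM in wild type (SD, n = 3 and n = 2), a log2 fold change of 3.25 ± 0.48 (SE; adjusted p = 0.0120, edgeR quasi-likelihood test). Over all host genes, 0.296% were called in either direction. Without any 1 of the 5 libraries Adarb1 lost its call (adjusted p between 0.0799 and 0.205, edgeR).

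The rise rested on a circle of 5 blocks, starred at its joint (chr10:77130537-77148360, minus strand, 942 bases when spliced). It had 41, 38 and 27 reads in Adar2KO and was listed in neither wild type library, at least 12.0-fold higher when wild type is set to 3 reads over the group. It missed the threshold on its own (adjusted p = 0.0956). The next Adarb1 circle, of 521 bases (chr10:77190359-77195569), had 5, 14 and 9 reads in Adar2KO, against 3 and 2 in wild type, which as CPM overlapped between the groups. On Illumina, sequenced from the same kind of cDNA, the 942-base circle had 177, 239 and 236 reads in Adar2KO, against 0, 0 and 0 in wild type. The block lengths of both Adarb1 circles match no run of annotated exons, so their joints are not printed.

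The 2 Gria2 circles with most reads stood lower in Adar2KO without passing. The circle of exons 3 to 6, which covers extracellular coding exons upstream of the edited codon, had 9, 9 and 9 reads in Adar2KO, against 36 and 18 in wild type. Every Adar2KO library was below both wild type libraries, at 22.6 ± 1.70 CPM in Adar2KO and 131 ± 55.1 CPM in wild type, but the wild type pair was far apart (log2 fold change -2.52 ± 0.41, adjusted p = 0.126, edgeR). The circle of exons 3 to 5 had 7, 8 and 12 reads in Adar2KO, against 13 and 10 in wild type (-1.31 ± 0.47, adjusted p = 0.431, edgeR). As a host, Gria2 had 48, 59 and 68 reads in Adar2KO, against 74 and 41 in wild type (-1.08 ± 0.27, adjusted p = 0.150, edgeR). Adar, which the labels do not list as altered in Adar2KO or wild type, had 23, 25 and 25 reads in Adar2KO, against 8 and 7 in wild type, 66.0 ± 3.30 CPM in Adar2KO and 43.7 ± 2.00 CPM in wild type. Its difference did not pass (0.59 ± 0.46, adjusted p = 0.645, edgeR). Ifih1, which encodes the cytoplasmic RNA sensor MDA5, had no circle in any of the 5 libraries.

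Of the 10975 circles, 7 were called between Adar2KO and wild type (0.0638%), 1 higher in Adar2KO (0.00911%) and 6 lower (0.0547%), by edgeR's quasi-likelihood test at an adjusted p of 0.05. Without adjustment, 1143 circles (10.4%) had a p under 0.05, of which 901 (8.21%) were higher and 242 (2.21%) lower in Adar2KO. The groups did not overlap in 19.7% of circles on the higher side and in 9.6% on the lower. Of these circles with a p under 0.05, 555 of the higher ones were unlisted in both wild type libraries and 38 of the lower ones in all 3 Adar2KO libraries, so that each had passed the filter through 1 group alone. Among the 9802 circles listed in both groups, 346 were higher and 204 lower at that p, and the groups did not overlap in 14.6% on the higher side and 10.4% on the lower. All 6 circles called lower were unlisted throughout the Adar2KO group. They passed the filter only through both wild type libraries, so they could not be tested without either of these or where 3 libraries had to hold 5 reads. By DESeq2, 89 circles (0.811%) were called.

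**Figure D1:**
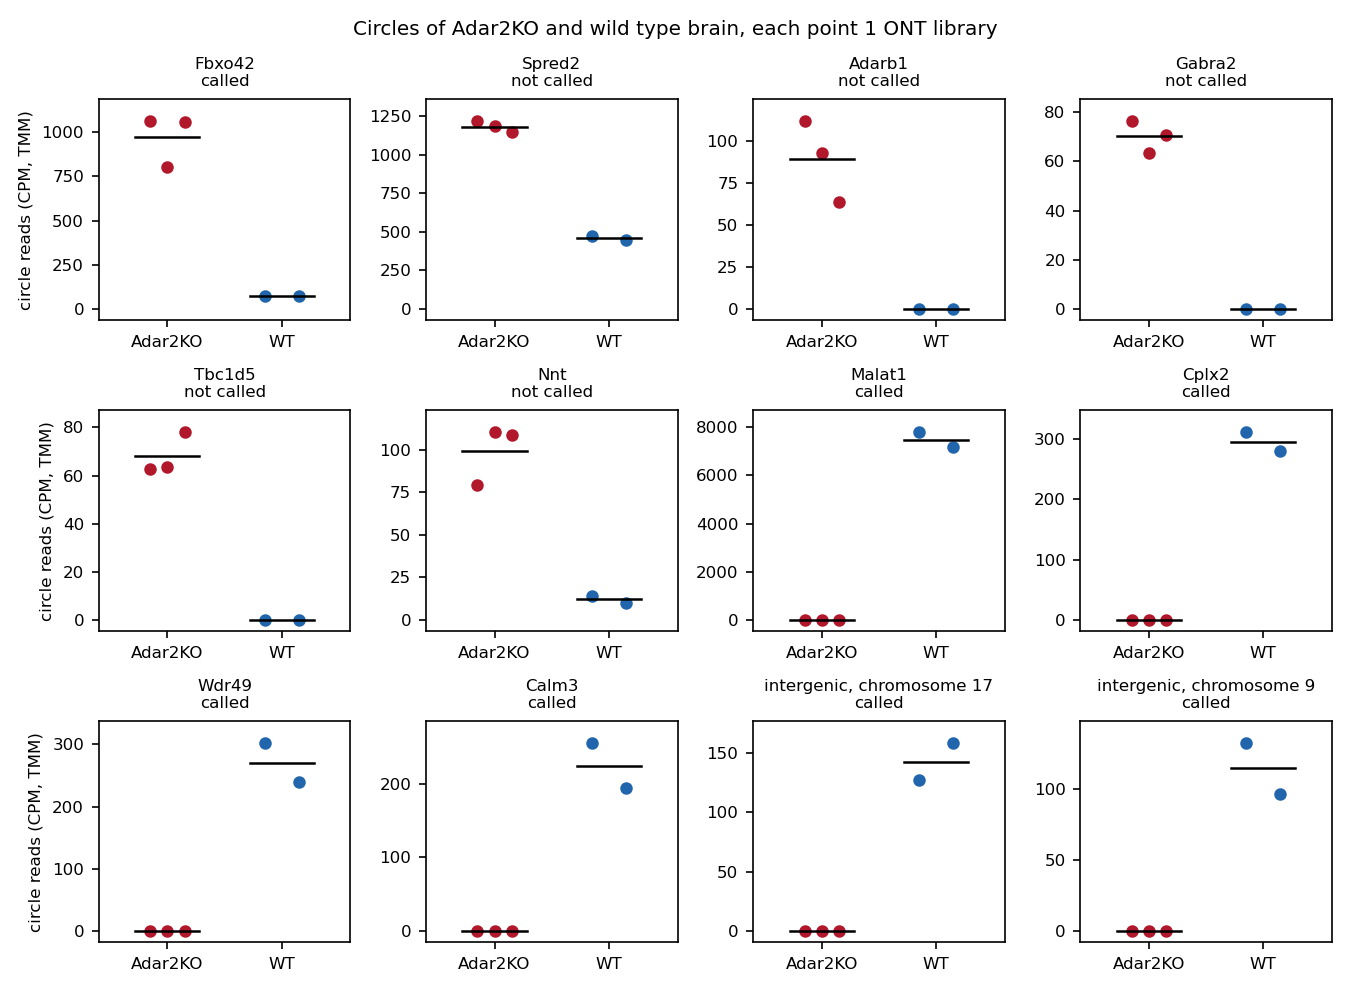
Level of 12 circles in each ONT library (y axis, CPM after TMM scaling, a separate scale for each panel), with Adar2KO left and wild type right, points for libraries and bars for means. The Fbxo42 points lie at 972 CPM on average in Adar2KO and 75.8 CPM in wild type, and the 6 circles called lower are at 0 in all 3 Adar2KO libraries.

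The circle that rose was that of Fbxo42, a substrate-binding F-box protein of ubiquitin ligases. It had 389, 327 and 448 reads in Adar2KO, against 16 and 15 in wild type. The groups were far apart and tight within each, at 972 ± 149 CPM in Adar2KO and 75.8 ± 0.695 CPM in wild type. The log2 fold change was 3.67 ± 0.27 (adjusted p = 0.00212, edgeR). As a host, Fbxo42 had a log2 fold change of 3.47 ± 0.27 (adjusted p = 0.000103, edgeR), since this circle of 3 exons and 517 bases carried nearly all of the 1212 host reads. On Illumina it had 2703, 2653 and 2808 reads in Adar2KO, against 730, 484 and 287 in wild type. The log2 fold change there was 2.32 ± 0.17 (adjusted p = 0.00155, edgeR; 0.0441% of Illumina circles were called). In the ONT libraries of Adar1-2KO, which share the loss of ADAR2 and the Gria2 allele, the called circle had 37, 31 and 78 reads. The shorter Fbxo42 circle with the same opening exon (chr4:140895024-140898251, 2 exons, 382 bases) had 4, 0 and 0 reads in Adar2KO, against 0 and 2 in wild type. On Illumina this shorter circle had 0, 0 and 0 reads in Adar2KO, against 21, 19 and 15 in wild type. It was lower there without passing (adjusted p = 0.471, edgeR). The circle of exons 2 to 4 lost its call without Adar2KO replicate 3 (adjusted p = 0.0697), wild type replicate 2 (0.183) or wild type replicate 3 (0.219), whereas the host kept its call without any 1 of the 5 libraries (adjusted p up to 0.0315, edgeR).

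Wdr49, which encodes a WD repeat protein, fell to almost nothing in Adar2KO. Its circle of exons 4 to 6 was listed in none of the 3 Adar2KO libraries, against 64 and 47 reads in wild type. With Adar2KO set to 3 reads over the group it was at least 109-fold lower (adjusted p = 0.00543, edgeR). The call was lost without Adar2KO replicate 3 (adjusted p = 0.0810), and without either wild type library the circle did not pass the filter. The circle of exons 5 to 6 was likewise unlisted in Adar2KO and had 9 and 14 reads in wild type, without passing (adjusted p = 0.165, edgeR). A long circle of 1606 bases had 6 reads in Adar2KO replicate 2 and none in wild type. Summed, Wdr49 had 0, 6 and 0 reads in Adar2KO, against 73 and 61 in wild type, a log2 fold change of -6.07 ± 0.59 (adjusted p = 0.000509, edgeR). On Illumina the circle of exons 4 to 6 had 0, 0 and 0 reads in Adar2KO, against 1039, 554 and 403 in wild type.

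Wdr49 was the only called circle of the 92 tested within 10 Mb of Gria2, and its end lay 5.29 Mb from the nearest listed Gria2 circle. In this window 16 circles (17.4%) had an unadjusted p under 0.05, 9 higher and 7 lower in Adar2KO. Within 10 Mb of Adarb1, 17 of 94 circles (18.1%) had such a p, 15 higher and 2 lower, and none was called. Elsewhere it was 1110 of 10789 circles (10.3%), with 6 calls. On Illumina, 4 of 367 circles near Gria2 and 2 of 356 near Adarb1 were called, against 13 of 42368 elsewhere. The 4 included circles of Wdr49 and Fstl5, and the 2 were those of Cabin1 and of Adarb1 itself. Position, the Gria2 allele and loss of ADAR2 cannot be told apart here. Among ependymal and choroid plexus hosts, where Wdr49 was listed, reads summed without Wdr49 came to 675, 924 and 817 CPM in Adar2KO and 874 and 797 CPM in wild type. These overlapped, and the defining genes Foxj1 and Ttr had no circle.

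The other 5 circles called lower had joints of a different kind. The deposited tables give the splice letters at each joint, AG and GT for the standard signal, and mark some of them with a star, whose meaning is not given in the sources used here. The called circles of Malat1, Cplx2, Calm3 and 2 intergenic regions all bore a star, those of Fbxo42 and Wdr49 none.

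Malat1, a nuclear long non-coding RNA that is among the most abundant transcripts of brain, had the largest such difference. Its circle at chr19:5850763-5851199 (437 bases, 1 block) went unlisted in all 3 Adar2KO libraries, against 1651 and 1412 reads in wild type, and was at least 2997-fold lower (adjusted p = 4.72e-05, edgeR). Other Malat1 circles took most reads in each Adar2KO library. Adar2KO replicate 1 had 2039 reads at chr19:5850759-5850805 and replicate 3 had 2848 at chr19:5850336-5850802. Replicate 2 had 1967 reads at chr19:5846201-5847133 and 1800 at chr19:5850522-5851938. None of these 4 was listed in any of the other 4 libraries. A circle at chr19:5846207-5847448 had 1406, 0 and 0 reads in Adar2KO, against 1034 and 917 in wild type. The called circle had 0, 1285 and 0 reads in the Adar1-2KO libraries, which carry the altered Adar, Ifih1, Adarb1 and Gria2 alleles together, and the Illumina tables do not list it. Summed over 157 circles, Malat1 had 4048, 4832 and 3521 reads in Adar2KO, against 3458 and 3154 in wild type. That is 11214 ± 1749 CPM in Adar2KO and 19263 ± 318 CPM in wild type, and the fall was of a far smaller size than that of the circle (log2 fold change -0.78 ± 0.14, adjusted p = 0.0496, edgeR). On Illumina the Malat1 host log2 fold change was 0.22 ± 0.29, the opposite sign without passing (adjusted p = 0.999, edgeR).

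**Figure D2:**
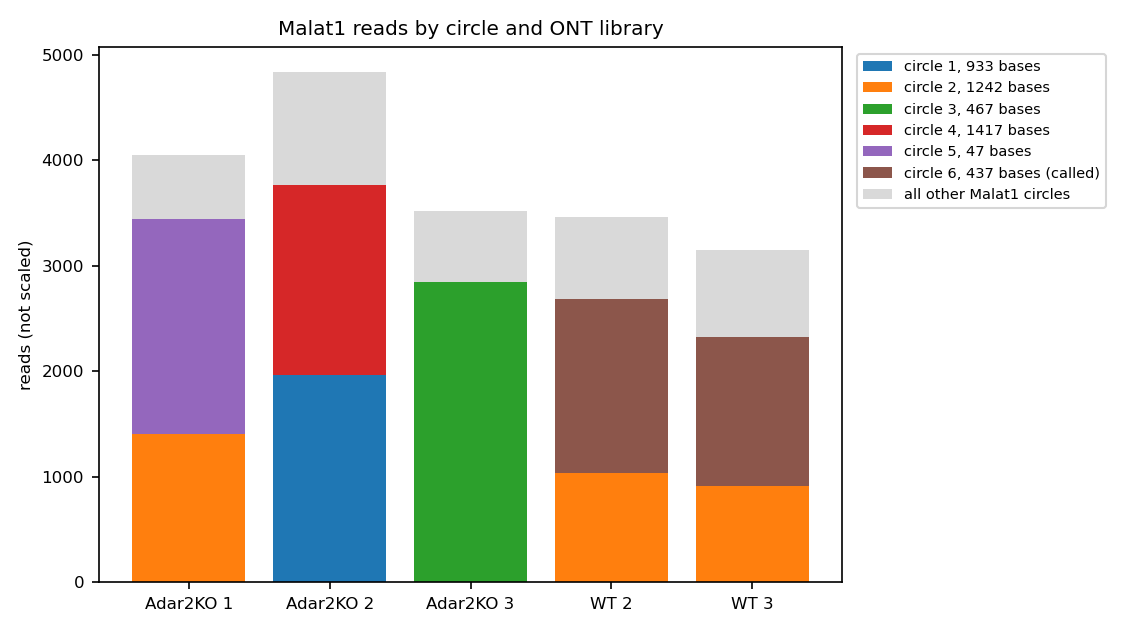
Reads of the 6 Malat1 circles with most reads and of all others together (y axis, reads not scaled for depth) in the 3 Adar2KO libraries on the left and the 2 wild type libraries on the right, numbered by position along the gene. The called circle (circle 6, 437 bases) holds 1651 and 1412 reads in wild type and none in Adar2KO, where each library has its own leading circle.

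Cplx2 encodes complexin 2, which acts at the presynaptic fusion machinery, and Calm3 encodes calmodulin. The Cplx2 circle (chr13:54526636-54527743, 2 blocks, 584 bases) was listed in no Adar2KO library, against 66 and 55 reads in wild type, at least 118-fold lower (adjusted p = 0.0046, edgeR). A longer circle with the same end (chr13:54526625-54527743, 595 bases) had 0, 0 and 19 reads in Adar2KO and none in wild type, and with circles merged within 20 bases the call was lost (adjusted p = 0.138, edgeR). It was also lost without Adar2KO replicate 3 (adjusted p = 0.0697). Over its 19 circles Cplx2 fell to 8, 15 and 25 reads in Adar2KO, against 79 and 70 in wild type (log2 fold change -3.32 ± 0.33, adjusted p = 0.000509, edgeR). The Calm3 circle (chr7:16650623-16651621, 4 blocks, 634 bases) was listed in no Adar2KO library, against 54 and 38 reads in wild type, at least 90.0-fold lower (adjusted p = 0.00808, edgeR). That call was lost without Adar2KO replicate 1 (adjusted p = 0.0651) or 3 (0.0894). Summed over 40 circles Calm3 fell to 31, 57 and 23 reads in Adar2KO, against 118 and 108 in wild type (-2.72 ± 0.30, adjusted p = 0.00123, edgeR). No read of either host came from a joint with AG and GT without a star. On Illumina Cplx2 had 1, 5 and 0 reads in Adar2KO, against 0, 0 and 3 in wild type as a host, and was not tested. Calm3 had 5, 7 and 26 Illumina reads in Adar2KO, against 9, 10 and 0 in wild type (0.81 ± 1.17, adjusted p = 0.999, edgeR), and these overlapped.

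The 2 intergenic circles were single blocks of 1365 and 1417 bases. That at chr17:40154866-40156230 had 27 and 31 reads in wild type and that at chr9:65593636-65595052 had 28 and 19. Neither was listed in an Adar2KO library or in the Illumina tables, and the bounds were at least 56.7-fold and at least 46.0-fold lower in Adar2KO (adjusted p = 0.0241 and 0.0469, edgeR). Both lost their calls without any 1 of the 3 Adar2KO libraries (adjusted p between 0.0966 and 0.163 on chromosome 17 and between 0.151 and 0.245 on chromosome 9).

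**Figure D3:**
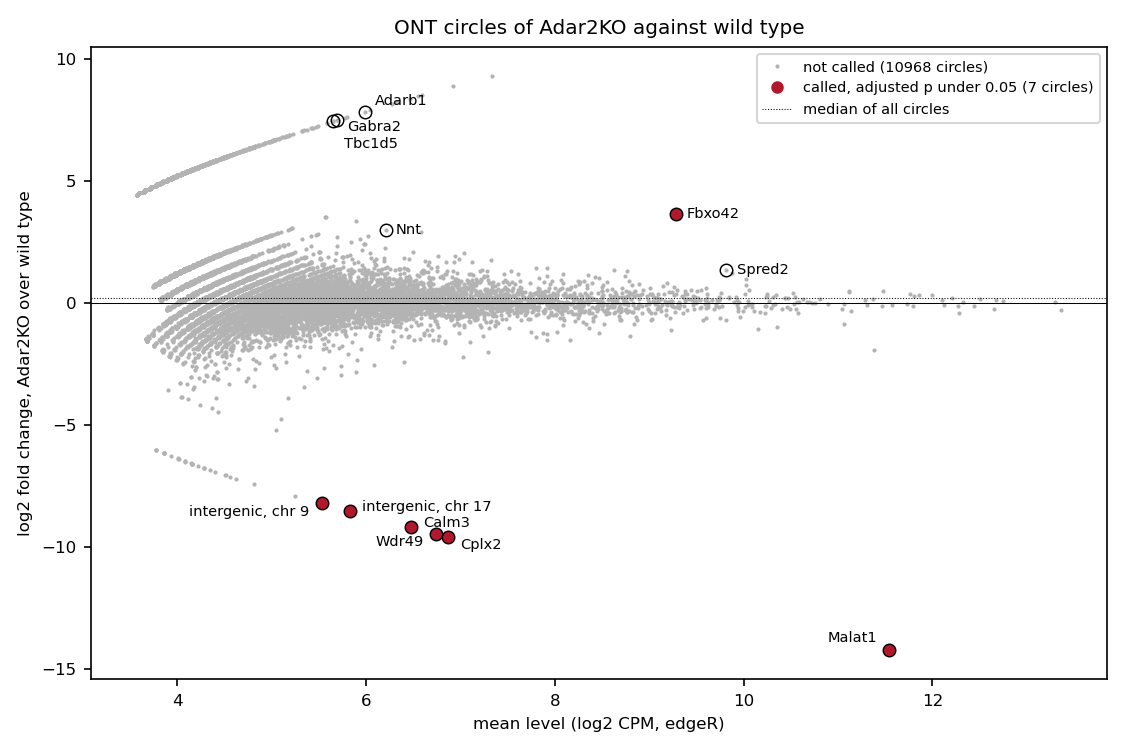
Mean level (x axis, log2 CPM) and log2 fold change of Adar2KO over wild type (y axis) of the 10975 circles, with the 7 called circles in red and the named ones ringed. The separate curved bands at the top and bottom hold circles listed in only 1 of the groups, whose plotted fold change depends on the prior count of the fit and is no bound.

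Of the 10975 circles, 8740 had AG and GT without a star, 1758 had AG and GT with one and 477 had other or no letters. Of the first kind, 97.6% were listed at the same coordinates on Illumina and their median span was 14062 bases in 4 blocks. Of the starred kind 40.7% were listed there, and of the last 25.2%, with median spans of 1168 and 997 bases in 1 block. An unadjusted p under 0.05 was found for 9.13% of circles with AG and GT without a star, 15.1% of starred ones and 16.8% of the rest, and the calls in these kinds numbered 2, 4 and 1. By class, 9439 were exon circles, 464 intron, 845 intergenic and 227 antisense, of which 95.9%, 44.2%, 11.7% and 4.85% were listed on Illumina. Of the 7 calls, 5 were exon and 2 intergenic circles. When only circles with AG and GT without a star were fitted, an alternative added after seeing the data, the Fbxo42 and Wdr49 circles were the 2 calls.

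Rises that did not pass are given as values. The Spred2 circle of exons 2 to 4 came closest, and Spred2 encodes an inhibitor of Ras and MAP kinase signalling. It had 446, 484 and 485 reads in Adar2KO, against 101 and 88 in wild type. At 1181 ± 34.8 CPM in Adar2KO and 462 ± 19.7 CPM in wild type the groups did not overlap (log2 fold change 1.35 ± 0.19, adjusted p = 0.0956, edgeR). The circle that reaches 1 exon further, exons 2 to 5, had 58, 46 and 47 reads in Adar2KO, against 14 and 20 in wild type, with a log2 fold change of 0.60 ± 0.35 (adjusted p = 0.602, edgeR). On Illumina the circle of exons 2 to 4 had 4761, 3401 and 5385 reads in Adar2KO, against 2536, 1474 and 1453 in wild type, a log2 fold change of 1.11 ± 0.16.

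Gabra2 encodes the alpha2 subunit of GABA-A receptors, and C57BL/6J mice are known for an intronic deletion that lowers its expression. The circle of exons 5 to 8 had 28, 26 and 30 reads in Adar2KO and was listed in neither wild type library, at least 9.54-fold higher (adjusted p = 0.0956, edgeR). The circle of exons 4 to 8 had 60, 61 and 82 reads in Adar2KO, against 14 and 17 in wild type (log2 fold change 1.15 ± 0.30, adjusted p = 0.298, edgeR). As a host Gabra2 had 111, 119 and 160 reads in Adar2KO, against 18 and 25 in wild type, just short of the threshold (1.48 ± 0.29, adjusted p = 0.0613, edgeR). The 2 tested Gabra2 circles that open with exon 5 were unlisted in both wild type libraries, while the 3 others were listed there. The second of them (chr5:71130768-71171979, 804 bases) had 4, 5 and 10 reads in Adar2KO. On Illumina the circle of exons 5 to 8 had 256, 163 and 276 reads in Adar2KO, against 0, 0 and 0 in wild type, and the 804-base circle 67, 47 and 63 in Adar2KO and 0, 0 and 0 in wild type. That of exons 4 to 8 had 766, 585 and 945 in Adar2KO and 299, 223 and 137 in wild type. As an Illumina host Gabra2 rose (1.90 ± 0.16, adjusted p = 0.000356, edgeR).

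Nnt encodes the mitochondrial proton pump that makes NADPH, and C57BL/6J mice are known for a deletion inside this gene. Its circle of exons 3 to 7 had 29, 45 and 46 reads in Adar2KO, against 3 and 2 in wild type (log2 fold change 2.98 ± 0.48, adjusted p = 0.126, edgeR). On Illumina it had 85, 74 and 121 reads in Adar2KO, against 12, 11 and 13 in wild type. A larger circle with the same closing exon (chr13:119518212-119541290, 1016 bases) had 34, 92 and 45 reads in Adar2KO, against 10 and 5 in wild type (1.94 ± 0.54, adjusted p = 0.323, edgeR). Whether the groups differed in these deletions of Gabra2 and Nnt was not tested.

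For Tbc1d5, a GTPase-activating protein of endosomal transport, ONT and Illumina values differed. Its circle (chr17:51224555-51227631, 4 blocks, 387 bases) had 23, 26 and 33 ONT reads in Adar2KO and was listed in neither wild type library, at least 9.31-fold higher (adjusted p = 0.105, edgeR). On Illumina the same circle had 403, 198 and 446 reads in Adar2KO, against 408, 259 and 153 in wild type, with overlapping groups. In the ONT libraries of Adar1-2KO, which share the loss of ADAR2 and the Gria2 allele, it had 0, 0 and 34 reads.

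Reads summed per host gene gave 14 calls of 4735 (0.296%), 7 higher in Adar2KO (0.148%) and 7 lower (0.148%), and 618 (13.1%) had an unadjusted p under 0.05, 8.91% higher and 4.14% lower. DESeq2 called 0.76% of hosts. Fbxo42, Adarb1, Wdr49, Cplx2, Calm3 and Malat1 are described above. The others with a rise were Spred2, Anks3, Zmiz1, Gm25541 and Ptprt, and Map1a and Gm42339 were others with a fall. In all 14 the groups did not overlap, as in 20.7% of all hosts on the higher side and 12% on the lower.

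**Figure D4:**
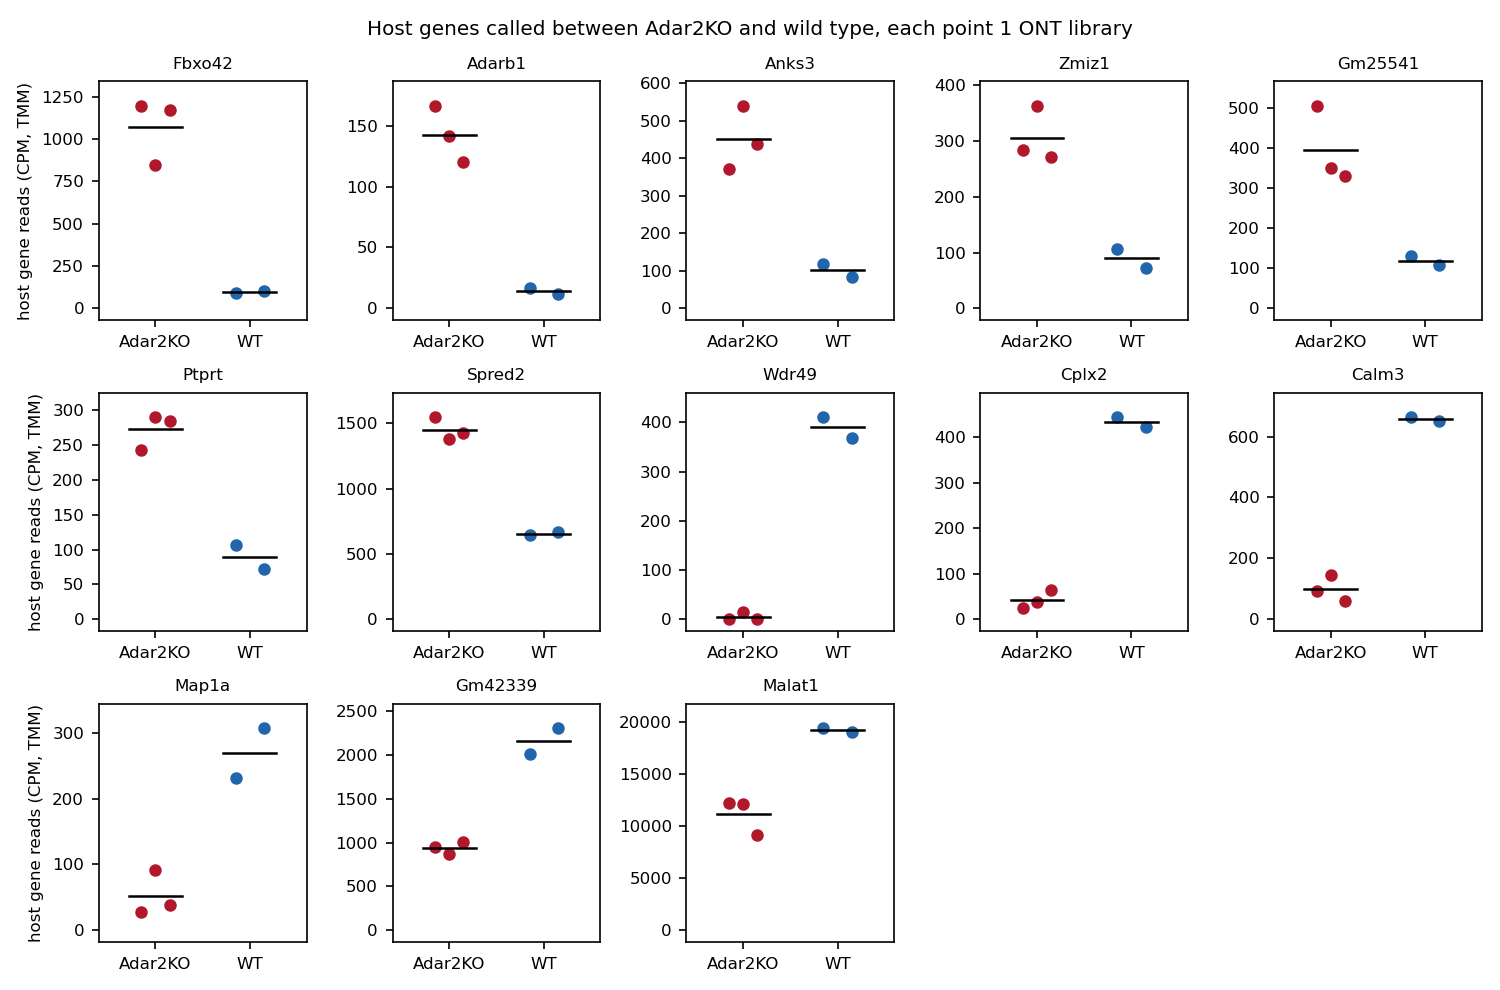
Reads summed per host gene in each ONT library (y axis, CPM after TMM scaling, a separate scale for each panel) for the called hosts described in the text, with Adar2KO left and wild type right, points for libraries and bars for means. Wild type Wdr49 averages 390 CPM against 5.05 CPM in Adar2KO, and Spred2 averages 1452 CPM in Adar2KO against 656 CPM in wild type.

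Spred2 had 512, 547 and 546 host reads in Adar2KO, against 115 and 110 in wild type, 1452 ± 87.2 CPM in Adar2KO and 656 ± 11.2 CPM in wild type (log2 fold change 1.15 ± 0.18, adjusted p = 0.0191, edgeR). Of its reads 97.9% came from joints with AG and GT without a star. Ptprt, a receptor tyrosine phosphatase of neurons, had 80, 115 and 109 reads in Adar2KO, against 19 and 12 in wild type (1.59 ± 0.29, adjusted p = 0.0499, edgeR). All 6 of its tested circles were higher in Adar2KO and none passed. The circle with most reads (chr2:161652470-161654056, 305 bases) had 15, 28 and 21 in Adar2KO and 3 and 3 in wild type, and one with the same opening exon but 931 bases (chr2:161498062-161654056) had 12, 10 and 18 in Adar2KO and none listed in wild type. On Illumina the 931-base circle had 35, 18 and 20 reads in Adar2KO, against 1, 0 and 0 in wild type, while Ptprt as a host had a log2 fold change of 0.34 ± 0.23.

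Zmiz1, a transcriptional coregulator, had 94, 144 and 104 reads in Adar2KO, against 19 and 12 in wild type (1.76 ± 0.30, adjusted p = 0.0340, edgeR). Its main exon circle (chr14:25503079-25582097, 5 blocks, 514 bases) had 60, 66 and 62 reads in Adar2KO, against 14 and 6 in wild type (1.68 ± 0.37, adjusted p = 0.235, edgeR). On Illumina that circle had 35, 55 and 46 reads in Adar2KO, against 36, 24 and 23 in wild type. Anks3, which encodes an ankyrin repeat protein of cilia, had 123, 214 and 168 reads in Adar2KO, against 21 and 14 in wild type (2.14 ± 0.29, adjusted p = 0.00806, edgeR). Of its reads 13.3% had a joint with AG and GT without a star. The rise lay in an intron circle of which the ends differed between libraries. At chr16:4773920-4775365 it had 99, 0 and 121 reads in Adar2KO, at chr16:4773938-4775349 it had 0, 174 and 0, and neither position was listed in wild type. The exon circle of Anks3 (chr16:4771683-4778432) had 14, 12 and 27 reads in Adar2KO, against 10 and 4 in wild type (0.36 ± 0.57), and on Illumina Anks3 as a host had -0.30 ± 0.26. Gm25541, a predicted gene, had 167, 139 and 126 reads in Adar2KO, against 23 and 18 in wild type (1.72 ± 0.29, adjusted p = 0.0340, edgeR), and none of its reads had AG and GT without a star. Its circles were of 66 to 126 bases and, as in Anks3, their ends differed between libraries, with 167, 0 and 126 reads in Adar2KO at one position (chr2:27429815-27429928) and 0, 139 and 0 at another (chr2:27429817-27429942), which had 20 and 12 in wild type.

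Gm42339, a predicted gene, fell on both platforms. It had 315, 345 and 386 reads in Adar2KO, against 357 and 383 in wild type, that is 944 ± 69.0 CPM in Adar2KO and 2162 ± 212 CPM in wild type (-1.19 ± 0.17, adjusted p = 0.00970, edgeR). Its main circle (chr4:142137768-142138655, 888 bases, starred) had 292, 311 and 344 reads in Adar2KO, against 321 and 351 in wild type (-1.06 ± 0.18, adjusted p = 0.144, edgeR). On Illumina Gm42339 had 1104, 958 and 446 reads in Adar2KO, against 4500, 3083 and 2083 in wild type (-2.09 ± 0.32, adjusted p = 0.0375, edgeR). Map1a, a microtubule-associated protein of neurons, had 9, 36 and 15 reads in Adar2KO, against 41 and 51 in wild type (-2.33 ± 0.41, adjusted p = 0.0431, edgeR). These reads were spread over 44 circles, and 1.32% of their reads had a joint with AG and GT without a star. On Illumina Map1a had 2, 15 and 7 reads in Adar2KO, against 10, 5 and 8 in wild type, and the groups overlapped.

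Leaving out 1 library at a time moved most host calls. Fbxo42, Wdr49 and Cplx2 kept theirs in all 5 such fits (adjusted p up to 0.0315, 0.0449 and 0.0448, edgeR). Calm3 lost it without wild type replicate 2 (0.0665) or 3 (0.0630). Anks3 lost it without either wild type replicate or Adar2KO replicate 3 (0.0763 to 0.205). Spred2, Gm42339 and Map1a kept it only without Adar2KO replicate 2 (0.0362 in each) and otherwise reached 0.259, 0.209 and 0.342. Zmiz1, Gm25541, Ptprt and Malat1 lost it in all 5 fits, with adjusted p up to 0.328, 0.328, 0.337 and 0.328.

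Circles that Illumina called in the same genotypes were looked up on ONT. Fbxo42, Wdr49, Adarb1 and Gabra2 are hosts of 4 of the 10 circles of lowest p among the 19 called on Illumina. A circle of Dennd1b, an exchange factor of Rab35, had 626, 570 and 657 Illumina reads in Adar2KO and none in wild type. On ONT it had 184, 152 and 173 reads in Adar2KO, against 48 and 34 in wild type, so it was listed in both wild type libraries (log2 fold change 1.09 ± 0.25, adjusted p = 0.241, edgeR). A circle of Reps1, an endocytic adaptor, had 415, 458 and 592 Illumina reads in Adar2KO, against 2511, 1864 and 1432 in wild type. On ONT it stood at 1056 ± 193 CPM in Adar2KO and 1064 ± 172 CPM in wild type, with a log2 fold change of -0.01 ± 0.22. Circles of Ccser2 and Cabin1, which Illumina listed in no Adar2KO library, were listed by ONT in all 3. The Cabin1 circle (chr10:75520126-75535929) lay 1.59 Mb from the nearest listed Adarb1 circle. It had 32, 23 and 41 ONT reads in Adar2KO, against 18 and 3 in wild type. The longer Ccser2 circle (chr14:36648796-36663221) had 18, 25 and 10 ONT reads in Adar2KO, against 20 and 15 in wild type. The shorter one (chr14:36660541-36663221) had 7, 13 and 14 in Adar2KO, against 23 and 20 in wild type, and as CPM both were lower in every Adar2KO library without passing (adjusted p = 0.514 and 0.207, edgeR). A circle of Fstl5, a follistatin-like secreted protein, lay 4.15 Mb from the nearest listed Gria2 circle. It had 199, 106 and 208 Illumina reads in Adar2KO, against 2, 1 and 2 in wild type. On ONT it had 25, 16 and 12 reads in Adar2KO and none listed in wild type, at least 6.02-fold higher without passing (adjusted p = 0.222, edgeR).

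Apart from that of Malat1, none of the 10 circles with the highest wild type level passed the test. The 10 were those of Zfp609, Ankrd12, Malat1, Tulp4, Gigyf2, Snrk, Rbm4, Zfp148, Hipk3 and Kat6b. Zfp609, a zinc finger gene whose exon 2 forms a well-known single-exon circle, had 3616, 3625 and 4446 reads in Adar2KO, against 2162 and 2591 in wild type. That is 9732 ± 820 CPM in Adar2KO and 11683 ± 2124 CPM in wild type (-0.26 ± 0.17, adjusted p = 0.637, edgeR). Ankrd12, a transcriptional corepressor, had 10201 ± 1584 CPM in Adar2KO and 9808 ± 155 CPM in wild type. On Illumina the same Ankrd12 circle had 22129, 27573 and 0 reads in Adar2KO, against 0, 0 and 0 in wild type, where ONT listed 2106 and 1906. Leaving out Malat1, the log2 fold changes of the 9 others ran from -0.38 ± 0.19 (Rbm4, an RNA-binding splicing regulator) to 0.16 ± 0.22 (Hipk3, a homeodomain-interacting kinase), and in 8 of the 9 the groups overlapped.

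The members were unevenly filled. Reads over the 5 libraries ranged from 10 to 16440 per circle with a median of 37, and the 154 circles with over 1000 reads held 32.5% of the reads. The tested circles with a named host came from 3480 hosts, of which 1592 had 1 circle and 139 had 10 or more. Dgki, a diacylglycerol kinase, had the most with 43, before Nbea with 35 and Rims2 with 34. At the edge of the filter, 1820 circles had exactly 5 reads in their second-highest library and were kept, and 2674 had 4 and were left out.

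No value per library passed a test between Adar2KO and wild type, for which the smallest exact two-sided permutation p is 0.1 with 3 against 2 libraries. The 10 most abundant circles held 6.95%, 6.14% and 6.84% of reads in Adar2KO and 7.36% and 7.63% in wild type (exact permutation p = 0.1, adjusted p = 0.7 over 7 values). Thinned to the 186594 reads of the smallest library, Adar2KO libraries listed 19720, 21497 and 19686 circles and wild type libraries 22830 and 22347 (p = 0.2, adjusted p = 0.7, exact permutation). Circles left with fewer than 2 reads by the thinning were dropped, and wild type replicate 3, the smallest library, was not thinned. This lowers the number in the deeper Adar2KO libraries, so no genotype difference can be read from it. Neither the top 10 share nor the thinned number overlapped between the groups. The share was taken without thinning, from between 35772 and 47174 listed circles in Adar2KO and from 25085 and 22347 in wild type. The part of this unequal depth in the share was not tested. Exon circles held 86.0 ± 1.96% of reads in Adar2KO and 86.2 ± 0.840% in wild type. The read-weighted median span was 8937 ± 607 bases in Adar2KO and 8902 ± 31.8 bases in wild type, and Adar2KO replicate 2 lay lowest at 8252 bases with the largest share of intergenic reads, 9.52%. Shares of intron, intergenic and antisense reads also overlapped between the genotypes.

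Host genes were also read by list. Over all 4735 hosts the median log2 fold change was 0.13, with 2739 hosts (57.8%) higher in Adar2KO. As 0.296% of all hosts were called and 13.1% had an unadjusted p under 0.05, a list of these sizes without a call is near the background. Of 18 tested hosts of known recoding sites, Adarb1 rose and none fell, with a median of -0.19. An unadjusted p under 0.05 was found for 4 of them (22.2%), but Adarb1 and Gria2 (-1.08) among these are the altered genes themselves. Azin1, an antizyme inhibitor, had 29, 24 and 12 reads in Adar2KO, against 24 and 17 in wild type. Ube2o, a ubiquitin ligase, had 9, 14 and 9 in Adar2KO and none listed in wild type, so it passed the filter through Adar2KO alone. The most abundant, Unc80 (-0.31 ± 0.22), a subunit of the sodium leak channel complex, Grik2 (-0.14 ± 0.19), a kainate receptor subunit with its own edited codon, and Cadps (0.58 ± 0.27), a vesicle priming factor, did not pass. Among 47 splicing and circular RNA regulators none was called (median 0.16), and 6 (12.8%) had an unadjusted p under 0.05. Rbm4 stood at -0.43 ± 0.14, Hnrnpu at 0.13 ± 0.27 and Rbm33 at 0.17 ± 0.20. Of the 36 genes of double-stranded RNA sensing and interferon only 5 passed the filter and 23 had no circle, Eif2ak2, Isg15 and Ifit1 among them. Stau2, a double-stranded RNA carrier of dendrites, led them with -0.03 ± 0.19, and none was called.

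**Figure D5:**
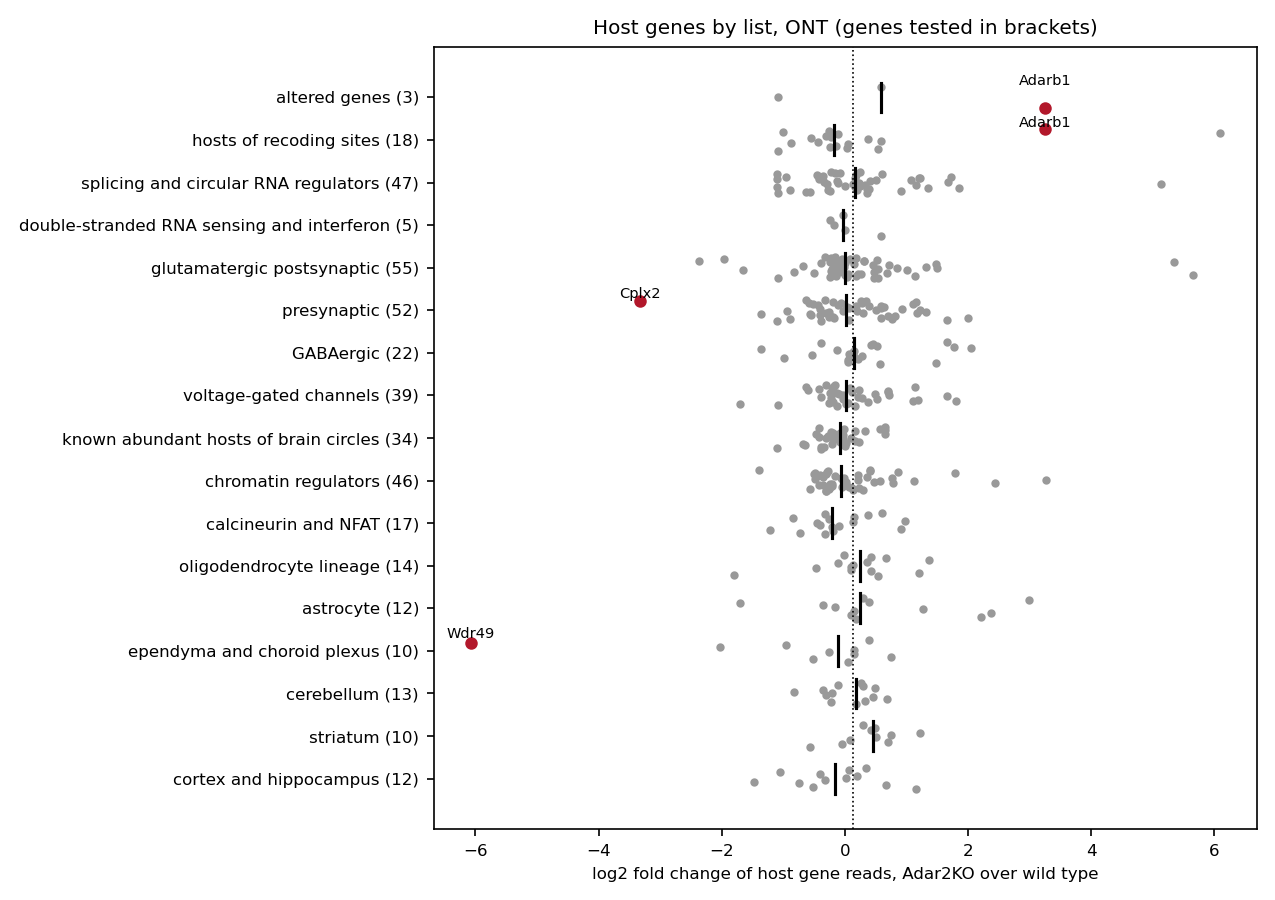
Log2 fold change of host gene reads, Adar2KO over wild type (x axis), for each list with at least 2 tested genes (y axis, number tested in brackets), with called genes in red, list medians as bars and the median of all hosts, 0.13, dotted. Cplx2, Wdr49 and Adarb1 are the called members, and medians of the lists with 10 or more genes lie between -0.22 and 0.46.

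Of 52 presynaptic hosts Cplx2 fell and none rose (median 0.02), and 10 (19.2%) had an unadjusted p under 0.05. Rims1 (-0.39 ± 0.17) and Rims2 (-1.10 ± 0.33), scaffolds of the active zone, did not pass. Rims2 had 1112, 1237 and 1278 reads in Adar2KO, against 1911 and 541 in wild type, so that the wild type libraries lay far apart. None of 55 glutamatergic postsynaptic hosts was called (median -0.00468), with 9 (16.4%) under that p. Dlgap1, a scaffold beside PSD-95, had -0.22 ± 0.15, Sipa1l1 -0.12 ± 0.16 and Grm4, a metabotropic glutamate receptor, 0.69 ± 0.20. None of 22 GABAergic hosts (median 0.14) and none of 39 channel hosts (median 0.01) was called, with 1 (4.55%) and 4 (10.3%) of them under that p. Gphn, the gephyrin scaffold, had 0.15 ± 0.19 and Unc79, a partner of Unc80, -0.17 ± 0.16.

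None of 34 hosts known for abundant brain circles was called (median -0.08), nor any of 46 chromatin regulators (-0.06) or of 17 calcineurin and NFAT genes (-0.22). Of the abundant hosts 10 (29.4%) had an unadjusted p under 0.05, of which Nfix and Fam53b were higher in Adar2KO and the others lower, and 29.4% of the list was higher at any p, against 57.8% of all hosts. All hosts include those of few reads, unlike this list. In a fit of hosts listed in all 5 libraries the median log2 fold change was 0.00589, against 0.13 over all. Under 0.05 lay 8 chromatin regulators (17.4%) and 2 calcineurin and NFAT genes (11.8%). Crebrf had -0.22 ± 0.14, and Kat6b, a histone acetyltransferase, -0.31 ± 0.13. Phf21a, a reader of unmethylated histone H3, had 1428, 17 and 34 reads in Adar2KO, against 5 and 592 in wild type, a spread within both groups that no genotype mean describes. Nfatc3 stood at -0.45 ± 0.19 and Ppp3ca, the calcineurin catalytic subunit, at -0.32 ± 0.22.

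Markers of cell types and regions showed how the tissue compared. Oligodendrocyte hosts (14 of 30 tested, median 0.24) summed to 1855, 1752 and 1669 CPM in Adar2KO and 1702 and 1388 CPM in wild type. Astrocyte hosts (12 of 26 tested, median 0.24) summed to 1964, 2224 and 1815 CPM in Adar2KO and 2446 and 2016 CPM in wild type, and none of either list was called. Of the 12 astrocyte hosts 9 were higher in Adar2KO and 3 (25%) had an unadjusted p under 0.05. Slc4a4, a bicarbonate transporter, had 0.10 ± 0.19 and Bmpr1b, a BMP receptor, -0.36 ± 0.22. Gpc5 stood at 2.38 ± 0.76 and Ptprz1 at 2.99 ± 0.94 without passing (adjusted p = 0.253 and 0.243, edgeR). Glul, the glutamine synthetase of astrocytes, had -1.70 ± 0.37 without passing (adjusted p = 0.0985, edgeR). Its reads were spread over 90 circles, and none came from a joint with AG and GT without a star. On Illumina Glul had the opposite sign, 1.34 ± 0.80, without passing (adjusted p = 0.972, edgeR). Cerebellar hosts (13 of 24 tested) summed to 4199 to 4748 CPM in Adar2KO and 3827 and 3855 CPM in wild type, and striatal hosts (10 of 18 tested, median 0.46) to 1525 to 1682 CPM in Adar2KO and 1178 and 1207 CPM in wild type. In both lists every Adar2KO library lay above both wild type libraries, no member was called, and their part in the results above was not tested. The cerebellar difference lay in Grm4, with 1707, 2333 and 1682 CPM in Adar2KO and 1076 and 1292 CPM in wild type. Of the 13 cerebellar hosts 7 (53.8%) were higher in Adar2KO, against 57.8% of all hosts. In whole brain, fewer cells of a type and less RNA per cell cannot be told apart. Cortical and hippocampal hosts (12 of 24 tested, median -0.16) overlapped, and microglial and vascular lists had 1 tested host each, with P2ry12, Csf1r and Cldn5 unlisted. Pcp2, Drd2 and Adora2a, which define cell types of cerebellum and striatum, had no circle either.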

How the data were processed

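Back-spliced reads were counted per circle in 3 Adar2KO and 2 wild type ONT libraries. The deposited ONT tables hold whole read counts per circle with coordinates on GRCm39, and the authors' caller for ONT is not given in the sources used here. Per the labels' protocols, 5 µg of RNA went into the RNase R digestion and 100 ng of cDNA entered each ligation library. For Illumina, the deposited counts came from CIRIquant 1.1.2, per the file headers, and the submitters' processing notes name BWA 0.7.17.

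Counts were fitted with edgeR 4.0.16 in R 4.3.3 (quasi-likelihood test, two-sided, TMM scaling, Benjamini-Hochberg adjustment over all circles or hosts tested, threshold 0.05, Adar2KO over wild type). CPM were computed here from these counts. DESeq2 1.42.0, other scalings and filters, all 8 ONT libraries in 1 fit, replicate numbers as a block and leaving out each library were alternatives. The procedure was tested on simulated data. With libraries rather than known separate animals as replicates of the fit, p-values measure the spread between these libraries. Host genes were those the tables name, and 845 tested circles (7.70%) have none, while 502 (4.57%) overlap several genes. Where several were named, predicted genes, clone-named genes and small RNAs were set aside if that left a single gene. Circles still with several names were left out of the host sums. The sums hold exon and intron circles only, so antisense circles are not in them.

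Circles named are the called ones or, with fewer than 5 in a direction, those of lowest p, the 10 most abundant of wild type, those of altered genes and the 10 of lowest p among the 19 called on Illumina. Hosts named are the called ones with the 2 circles of most reads each and the 3 highest of each gene list. Outside this rule, Azin1, Ube2o, Gpc5, Ptprz1, Nfix and Fam53b were named because their unadjusted p (edgeR) was under 0.05. The second Gabra2, Nnt and Ptprt circles and the Malat1 and Anks3 positions were chosen after their values were seen. The members and gene lists were chosen with earlier results of these data known. Of the genes this rule names, 1 called host and 1 list member are not reported here.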

Additional observations from a re-analysis of the deposited data

Results flagged for a closer look

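Signals in the 3 Adar1-2KO ONT libraries, which the comparison does not use, are given for 3 of the 1135 tested circles listed in neither wild type library. Summed over these libraries, the Adarb1 circle at chr10:77130537-77148360 had 111 reads (27, 18 and 66), the Gabra2 circle at chr5:71163450-71171979 had 106 reads (29, 33 and 44) and the Fstl5 circle at chr3:76389532-76443671 had 21 reads (13, 5 and 3), each against 0 in wild type. Adarb1 is itself an altered gene, and the Fstl5 circle lay 4.15 Mb from the nearest listed Gria2 circle. Other named circles of this kind varied. That of Tbc1d5 (chr17:51224555-51227631) had 0, 0 and 34 such reads, and the 804-base Gabra2 circle had 5, 4 and 3. The 931-base Ptprt circle had 0, 4 and 0. Those of Anks3 at chr16:4773920-4775365 and Gm25541 at chr2:27429815-27429928 had 0, 0 and 0 each. How many of the 1135 had reads there was not counted.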

How the results depend on the processing

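With 3 against 2 libraries and 1 read worth 2.36 to 5.09 CPM, circles of few reads cannot be told apart. Calls were 7 circles and 14 hosts. Circles called were 12 at a threshold of 0.1, 89 by DESeq2, 12 with 10 reads in 2 libraries, 1 with 5 reads in 3 libraries, 326 without a filter, 61 among those listed in all 5 libraries and 3 with all 8 ONT libraries in 1 fit. With 2 alternatives added after seeing the data they were 2 (AG and GT without a star only) and 15 (circles merged within 20 bases). Hosts called were 32 at 0.1, 36 by DESeq2, 23 with 10 reads in 2 libraries, 102 without a filter, 39 listed in all 5, 6 with all 8 libraries and 5 from circles with AG and GT without a star, also added after seeing the data. From circles of exactly 1 gene, 10 hosts were called, and Zmiz1, Ptprt, Map1a and Malat1 lost their calls. With the replicate numbers as a block, 79 circles and 88 hosts were called. The labels give only numbers, and the deviations of same-numbered libraries correlated at 0.036 over circles and 0.034 over hosts, so the numbers were not taken as pairs. Without 1 library the calls ran from 0 to 7 circles and 4 to 10 hosts. At 0 circles (without wild type replicate 3) 1134 had an unadjusted p under 0.05 by edgeR. DESeq2 did not call the Wdr49 host. Over named circles and hosts, 1577 results under alternatives stayed on their side, 85 lost a call, 83 gained one and 34, without a call either way, moved by more than 1 SE, and none reversed. Leaving out libraries moved the difference in the share of the top 10 circles between -1.01 and -0.600 percentage points, exon share -0.966 to 0.924, intron share -0.0746 to 0.289, intergenic share -0.633 to 0.703, antisense share -0.216 to 0.0585, median span -199 to 378.5 bases and thinned circle number -2885.5 to -1980. The thinned number has the limit given with it above, which lowers the deeper Adar2KO libraries. Counting circles with at least 5 reads gave -1.51 percentage points for the top 10 share and, unthinned, 5790 more circles in Adar2KO, and 17636 more unthinned from 2 reads.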
